A study of Mus musculus with 12 samples.

Results

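The complement and coagulation cascades were followed through 50 genes in the livers of mice that had been made fibrotic with carbon tetrachloride (CCl4), a hepatotoxin that is activated in hepatocytes and whose repeated injection scars the liver. The members were the complement components, their receptors and regulators, and the clotting factors, their inhibitors and the genes of fibrinolysis, picked by gene name. All 50 names were found, each once, among the 21936 genes of the deposited table. Livers of male C57BL/6 mice, 6 weeks old on arrival, were compared in 3 groups with 3 libraries each. Every animal, controls included, had been injected intraperitoneally with CCl4 (1 mL/kg) for 8 weeks at 2 injections a week, so no group stands for a healthy liver. Livers of the liver fibrosis group (LFG) were taken when these injections ended. The regression group (REG) then lived a further 4 weeks without CCl4 and was given 200 µL of phosphate-buffered saline through the tail vein at 2 injections a week. On that same schedule the hADMSCs-Exo group was given exosomes, 250 µg of protein in the same volume. The exosomes came from human adipose mesenchymal stem cells (hADMSCs). Samples of mice given the cells themselves were not analysed here.

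Complement is a chain of plasma proteins that is started by antibody bound to C1q, by sugars bound to mannose-binding lectins or by the alternative pathway, and all 3 arms meet in the cleavage of C3. Cleavage of C5 then starts the membrane attack complex, and the small fragments C3a and C5a attract and activate leukocytes through their receptors. Coagulation is started by tissue factor with factor VII or by the contact system, runs through factors X and II (prothrombin) and ends with the conversion of fibrinogen to fibrin, which plasmin later dissolves. Hepatocytes are the main source of most of these proteins, while C1q and properdin come mainly from macrophages and other myeloid cells, and factor VIII, von Willebrand factor and thrombomodulin mainly from endothelium.

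Total counts lay between 13837445 and 19840917 per library. Of 12 hepatocyte marker genes 11 were found and none was at 0 in any library, with a summed level of 85888 to 171747 CPM. All CPM given here are counts scaled to a common library total that was first multiplied by a factor from the trimmed mean of M-values (TMM), so they differ from plain shares of the library. The library of LFG replicate 3 stood apart from the other LFG libraries. The 14 macrophage markers summed to 169 CPM there against 1968 and 1359 CPM in LFG replicates 1 and 2, and the 9 stellate cell and myofibroblast markers to 60.6 CPM against 1470 and 979 CPM. The markers were at 83.8 to 381 CPM for stellate cells and at 550 to 1051 CPM for macrophages in the 6 other libraries. In bulk liver, fewer cells of a type and less RNA per cell cannot be told apart. The member counts of each comparison with LFG, and the names of members past the thresholds, are therefore given with all 6 libraries and again without LFG replicate 3. Fold changes are given both ways for some of these members only. The TMM factors were 1.38, 1.10 and 0.815 for the LFG libraries and 0.919 to 1.02 for the others.

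The 3 fibrinogen genes sit together on chromosome 3, and their promoters are shown because these genes moved furthest with a common sign between LFG and REG among the abundant members. Fga (ENSMUSG00000028001) lay at chr3:83026076-83033627 on the plus strand. Fgb (ENSMUSG00000033831) lay at chr3:83040141-83049863 on the minus strand. Fgg (ENSMUSG00000033860) lay at chr3:83007724-83015049 on the plus strand. The bases before each start were taken from RefSeq on build GRCm38.p6 and are printed 5′ to 3′ on the gene's own strand. Capitals mark matches to CTGGGAA, the core of the interleukin-6 response element of acute-phase genes, to TTGCNNAA, which C/EBP factors can bind, and to GTTAAT, one arm of the HNF1 site, each searched on both strands. The Fga stretch ends before the start in the deposited table, which lies upstream of the RefSeq start.
Fgg, chr3:83007474-83007723, plus strand: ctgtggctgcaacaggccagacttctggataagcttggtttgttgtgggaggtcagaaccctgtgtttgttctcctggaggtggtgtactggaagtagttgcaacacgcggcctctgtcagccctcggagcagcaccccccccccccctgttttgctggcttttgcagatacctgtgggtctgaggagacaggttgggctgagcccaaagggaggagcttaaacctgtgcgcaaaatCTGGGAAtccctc
Fga, chr3:83025903-83026075, plus strand: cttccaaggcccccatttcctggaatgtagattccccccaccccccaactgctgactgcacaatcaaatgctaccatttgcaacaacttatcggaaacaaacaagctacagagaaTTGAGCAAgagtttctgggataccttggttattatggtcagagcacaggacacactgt
Fgb, chr3:83049864-83050113, minus strand: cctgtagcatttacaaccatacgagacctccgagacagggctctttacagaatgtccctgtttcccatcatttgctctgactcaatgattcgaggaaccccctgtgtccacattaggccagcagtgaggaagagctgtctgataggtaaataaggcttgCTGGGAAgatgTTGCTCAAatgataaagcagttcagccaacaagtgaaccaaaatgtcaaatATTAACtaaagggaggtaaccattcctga
The match to CTGGGAA began 13 bases before the start of Fgg and 91 bases before that of Fgb, where a match to TTGCNNAA followed 80 bases and a reverse match to GTTAAT 29 bases before the start. In Fga a reverse match to TTGCNNAA began 135 bases before the RefSeq start. RefSeq windows from 250 bases before to 50 bases after a start were at hand for 38 of the 50 members. A window of 26.3% of these 38 members held GTTAAT, as did 7.1% of all 32851 windows. For TTGCNNAA the shares were 28.9% and 10.8%, and for CTGGGAA 15.8% and 11.1%. The pattern TTCNNNGAA, which STAT factors can bind, occurred in 18.4% of the members and 8.3% of all windows. GAGGAAGT, a PU.1 sequence, occurred in 2.63% and 3.2%. A member counted if any of its windows matched, while all windows were counted singly, so these shares are of unlike units. The matches describe letters and were not tested as binding sites.

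Together the members held 3.61% to 6.68% of all counts in a library. Their share was 4.43% (95% Wilson interval 4.42% to 4.44%), 5.15% (5.14% to 5.16%) and 3.61% (3.60% to 3.62%) in LFG replicates 1 to 3, 6.49%, 5.51% and 5.51% in REG and 5.80%, 5.04% and 6.68% in hADMSCs-Exo, and these intervals cover counting error only. Every LFG value was below every REG value, while LFG and hADMSCs-Exo overlapped. That overlap rested on C3: without it the share was 2.91%, 3.33% and 3.10% in LFG, 4.89%, 4.45% and 4.51% in REG and 3.93%, 3.83% and 5.10% in hADMSCs-Exo, with LFG below every other library. As a share of summed FPKM, all 50 members included, the lowest REG library at 4.09% was still above the highest LFG library at 3.84%, and hADMSCs-Exo replicate 2 lay just below the latter at 3.7997%. Between genes, levels were compared as FPKM, in which counts are divided by gene length and library total. C3, the component on which all complement arms converge, had the highest mean at 2629 FPKM over the 9 libraries. Fga followed at 2051 FPKM, then Fgg at 1629 FPKM, Fgb at 1610 FPKM and Kng1, the kininogen of the contact system, at 1243 FPKM. The ranges of these members over the libraries overlapped, from 987 to 3628 FPKM for C3 and from 988 to 3068 FPKM for Fga. In all, 27 members had a mean over 100 FPKM and 9 a mean under 5 FPKM. The 9 were C2, Cfb, Cfd, C3ar1, C5ar1, F3, F8, Thbd and Vwf.

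**Figure D1:**
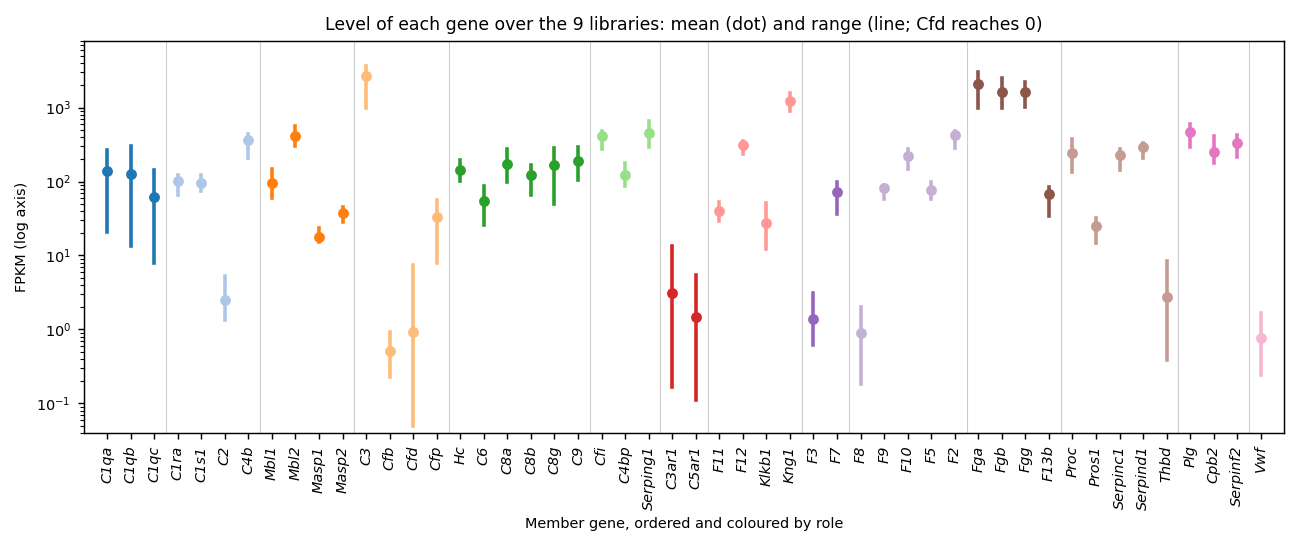
Level of each of the 50 genes as FPKM on a log axis, with the mean of the 9 libraries as a dot and the lowest to highest library as a line, coloured by role. C3, the 3 fibrinogen genes and Kng1 have the highest means, from 1243 to 2629 FPKM, and the lines are longest for C3ar1, C5ar1 and Cfd, whose line is cut at the axis because it reaches 0.

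The levels of C2 and Cfb are uncertain. Exons of the read-through gene Gm20547 cover 42.8% of the exon bases of C2 and 79.5% of those of Cfb on the same strand, and Gm20547 itself was listed with 0 counts in all 9 libraries. C2, the protease that joins C4 in the classical C3 convertase, had 89 to 279 counts per library, and Cfb, its counterpart in the alternative pathway, had 9 to 44. Exons of Gm45753 likewise cover 43.2% of Klkb1, plasma prekallikrein. On the opposite strand Tardbp covers 54.9% of Masp2 and Zbtb37 34.4% of Serpinc1, and whether counting used strand is not given in the sources used here. Cfd, complement factor D, which is known as adipsin for its high expression in fat, had 0, 3 and 94 counts in LFG, 5, 0 and 2 in REG and 3, 0 and 3 in hADMSCs-Exo. It was the one member that failed the filter on low counts, so 49 members were tested. The 5 adipocyte markers summed to 10.9, 5.32 and 8.60 CPM in LFG, 3.57, 1.76 and 3.57 CPM in REG and 5.53, 3.13 and 3.98 CPM in hADMSCs-Exo, with Retn and Lep at 0 in all 9 libraries. The one marker of the list that was tested, Cidec, was lower than in LFG at an unadjusted p under 0.05, by a log2 fold change of -1.47 in REG and -1.01 in hADMSCs-Exo. These markers were looked at after the counts of Cfd were seen, and their part in the counts of Cfd was not tested.

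Across libraries the members did not vary independently. On the scale of log2 CPM after TMM scaling, LFG replicate 1 was the lowest of the 9 libraries for 33 of 49 members (67.3%), against 19.7% of the 12758 genes kept. LFG replicate 3 was the highest library for 12 members (24.5%, against 24.8% of all genes) and the lowest for 9 (18.4%, against 26.0%). The 9 lowest were C1qa, C1qb, C1qc, C3, Cfp, C3ar1, C5ar1, F8 and Pros1. hADMSCs-Exo replicate 3 was the highest library for 14 members (28.6%, against 4.67% of all genes), among them C4b, Serping1, F7, F2, Fga, Fgg, Plg and Cpb2. Scaled by library totals alone, LFG replicate 1 was lowest for 19 members (6.13% of all genes), LFG replicate 3 for 20 (40.1%), and hADMSCs-Exo replicate 3 was highest for 11 (2.46%).

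**Figure D2:**
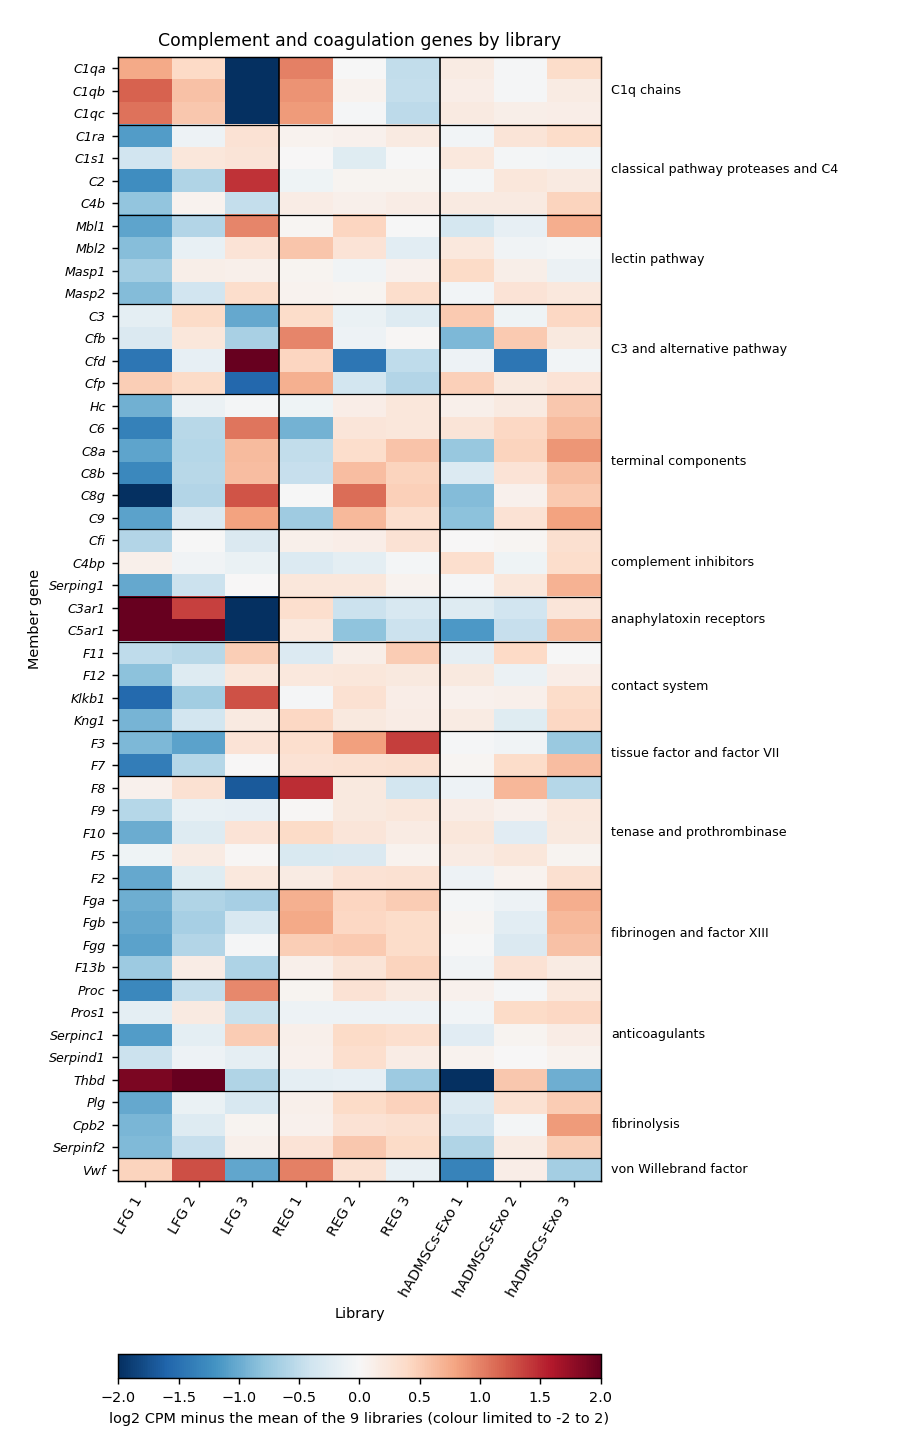
Log2 CPM of each of the 50 genes minus its mean over the 9 libraries, one row per gene grouped by role and one column per library, with blue below and red above the mean and colours limited to -2 and 2. LFG 1 is blue for most liver-made factors and red for C1q and the anaphylatoxin receptors, while LFG 3 is dark blue for C1q and these receptors.

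To ask how the cascades differed after 4 weeks without CCl4, REG was compared with LFG with edgeR's quasi-likelihood model fitted to all genes. A gene passed the thresholds if its adjusted p was under 0.05 and its level changed by 1 or more log2 units. No member did so, and neither did any of the 12517 genes tested (0.0%). An unadjusted p under 0.05 was reached by 8 of 49 members, against 11.3% of all genes tested. Of these 7 were higher in REG (Fga, Fgb, Fgg, F3, F7, Plg and Serpinf2; 4.62% of all genes) and 1 was lower (Thbd; 6.7% of all genes). The members' median log2 fold change was 0.39, against -0.07 for all genes, with 37 members above 0 and 12 below, while 44.1% of all genes were above 0. In 13 members (26.5%) the REG and LFG libraries did not overlap, against 18.9% of all genes, and all 13 were higher in REG, a direction seen in 9.28% of all genes, while 9.63% were lower. They were C4b, Cfi, Serping1, F3, F7, F9, Fga, Fgb, Fgg, Serpind1, Plg, Cpb2 and Serpinf2. With 3 libraries against 3, an exact permutation test of a single gene cannot give a two-sided p below 0.1. The p-values measure the spread between the libraries of a group, and the labels do not say more of how these were drawn from animals. By DESeq2, 2 members passed both thresholds, Fga and Fgb, beside 1.42% of all genes that it tested, and 13 had an unadjusted p under 0.05, beside 11.1%.

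Leaving out LFG replicate 3 changed these counts more than leaving out any other library. Without it 13 members passed both thresholds in REG against LFG, beside 10.7% of all genes tested. Of the 13, 10 were higher in REG (C8g, Fga, F3, F7, Fgb, Fgg, Mbl1, Serpinf2, Proc and Klkb1), beside 3.81% of all genes, and 3 were lower (C3ar1, C5ar1 and Thbd), beside 6.94%. An unadjusted p under 0.05 was then reached by 28 members, beside 37.3% of all genes, and the median of the members was 0.73 with 37 above 0 and 12 below, beside 49.8% of all genes above 0. The direction of the calls depended on the scaling. With library totals alone and without LFG replicate 3 only C8g and F3 were higher and C3ar1, C5ar1 and Thbd lower, beside 1.56% and 17.2% of all genes, since that scaling moved the median of all genes from -0.01 to -0.43. With all 6 libraries it moved that median from -0.07 to -0.27 and the members' median from 0.39 to 0.27. When any other single library was left out, no member passed the thresholds and 2 to 4 members had an unadjusted p under 0.05: 3 without LFG replicate 1 (8.96% of all genes), 4 without LFG replicate 2 (7.13%), 3 without REG replicate 1 (6.22%), 2 without REG replicate 2 (4.51%) and 2 without REG replicate 3 (8.0%).

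The comparison of hADMSCs-Exo with LFG shares the LFG libraries with the one above. No member passed the thresholds, and neither did any of 12489 genes tested (0.0%). An unadjusted p under 0.05 was reached by 3 members, against 5.98% of all genes, with Fga and F7 higher (2.3% of all genes) and Thbd lower (3.68%) in hADMSCs-Exo. By DESeq2, 7 members reached it, beside 7.2% of all genes, and none passed the thresholds. With the replicate number as a block, 5 members reached it, beside 5.72% of all genes, Serping1 and Fgb being added, and none passed the thresholds. No label pairs the libraries of these groups, so the block serves only as an alternative setting. The members' median log2 fold change was 0.27, against -0.06 for all genes, with 40 members above 0 and 9 below, while 43.1% of all genes were above 0. The groups did not overlap for 8 members (16.3%), against 12.3% of all genes, and all 8 were higher in hADMSCs-Exo, as were 6.73% of all genes, while 5.52% were lower. They were C4b, Hc, Cfi, F7, F9, Fga, Fgb and Serpind1. Without LFG replicate 3, 6 members passed both thresholds, beside 5.97% of all genes: C6, F7 and Klkb1 were higher (1.47% of all genes) and C3ar1, C5ar1 and Thbd lower (4.5%). An unadjusted p under 0.05 was then reached by 21 members, beside 28.5% of all genes, and 40 members were above 0, beside 50.3%. With library totals alone and without that library 7 members passed, beside 10.8% of all genes, and only C6 was higher, beside 0.88%. None had an unadjusted p under 0.05 without LFG replicate 1, without hADMSCs-Exo replicate 1 or without hADMSCs-Exo replicate 3, where 4.14%, 3.31% and 2.91% of all genes did.

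The effect of the exosomes beyond recovery itself was addressed by hADMSCs-Exo against REG, which shares its libraries with the comparisons above. No member passed the thresholds, against 1 of 12337 genes tested (0.00811%). An unadjusted p under 0.05 was reached by 3 members, against 10.0% of all genes, F3 and Vwf being lower (4.69% of all genes) and Pros1 higher (5.34%) in hADMSCs-Exo. By DESeq2 3 members reached it too, F3, Vwf and C4bp, beside 7.73% of all genes. The members' median log2 fold change was -0.05, against 0.01 for all genes, with 19 members above 0 (51.1% of all genes) and 30 below, and with library totals alone 26 were above 0 (60.03% of all genes) and 23 below. The groups did not overlap for 5 members (10.2%), against 15.5% of all genes. C4b, C6 and Pros1 were the higher ones in hADMSCs-Exo (8.14% of all genes) and F3 and Serpind1 the lower ones (7.37%). Without hADMSCs-Exo replicate 3, 5 members (10.2%) had an unadjusted p under 0.05, beside 9.57% of all genes, all of them lower in hADMSCs-Exo (Cpb2, Fga, F3, Fgb and Fgg), as were 4.45% of all genes, and the median was -0.16. Without REG replicate 2 only F3 was under that limit, beside 4.92% of all genes.

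**Figure D3:**
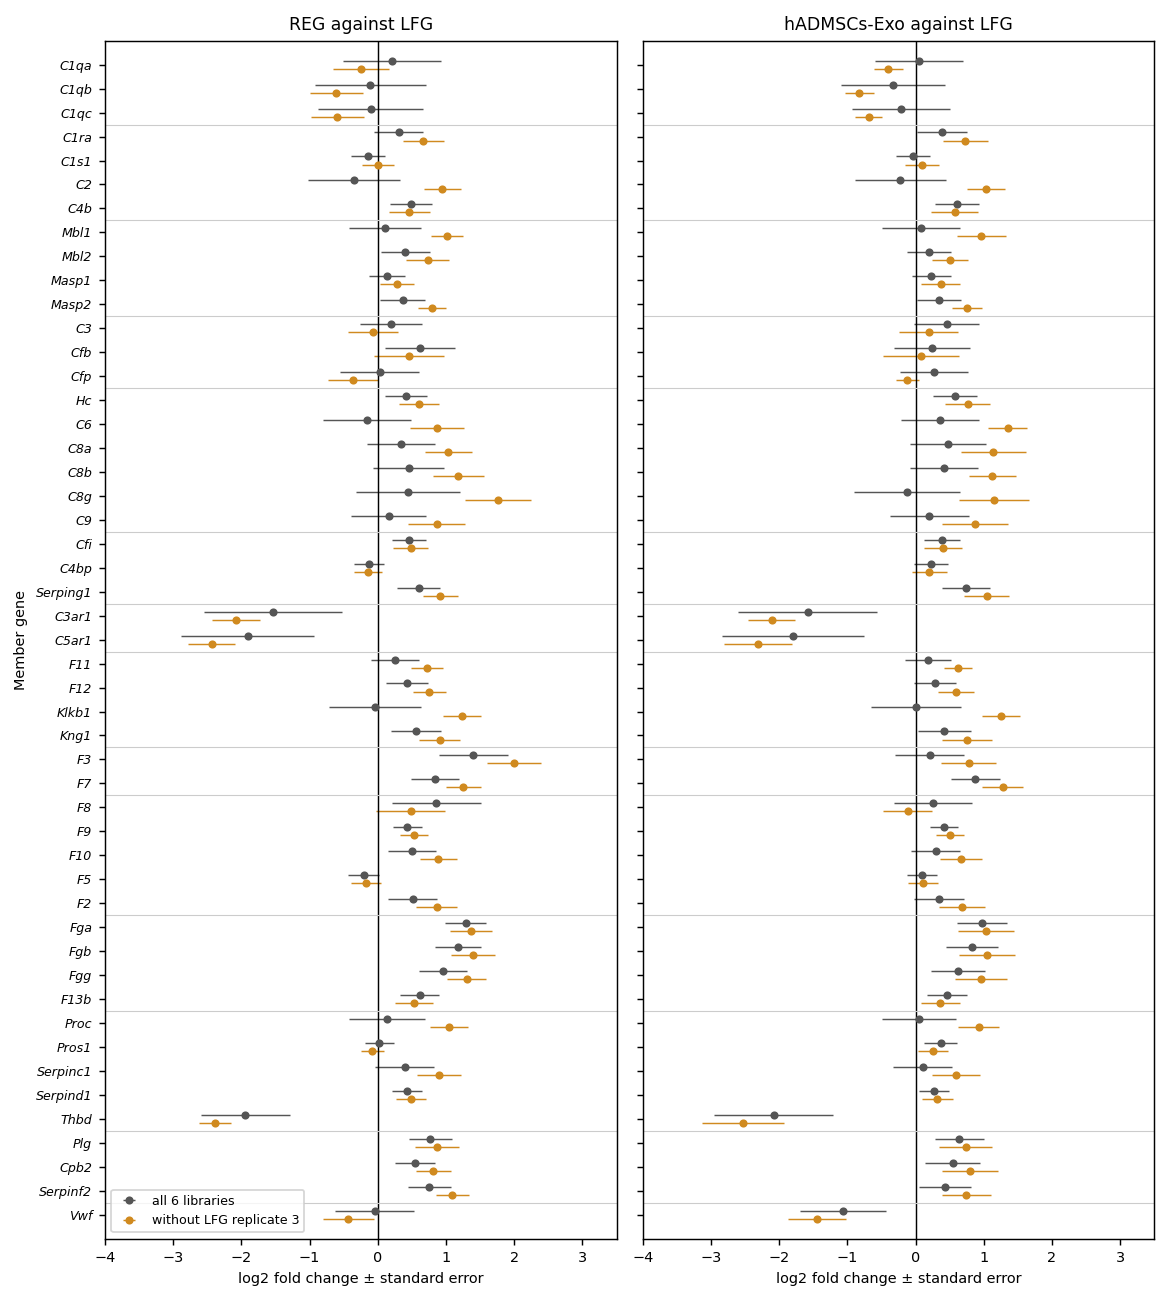
Log2 fold change with its standard error of the 49 tested genes in REG against LFG (left) and hADMSCs-Exo against LFG (right), with all 6 libraries in grey and without LFG replicate 3 in orange. Without that library the median moves from 0.39 to 0.73 in REG and from 0.27 to 0.62 in hADMSCs-Exo, and the bars of C3ar1, C5ar1 and Thbd shorten below 0. With library totals alone, not plotted, the medians without that library are 0.35 and 0.31.

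C1q, the recognition molecule of the classical pathway, is built from the chains C1qa, C1qb and C1qc. C1qa, the most abundant of them with a mean of 138 FPKM, was at 7.65, 7.29 and 4.73 log2 CPM in LFG, 7.90, 6.89 and 6.40 in REG and 7.07, 6.88 and 7.26 in hADMSCs-Exo. All groups overlapped, and LFG replicate 3 was the lowest of the 9 libraries. Its log2 fold change was 0.22 ± 0.72 (SE, n = 3 and 3) in REG against LFG and 0.05 ± 0.64 in hADMSCs-Exo against LFG, and these turned to -0.24 and -0.40 without LFG replicate 3 and to -0.16 and -0.24 with library totals alone. C1qb and C1qc were lowest in LFG replicate 3 too, but highest in LFG replicate 1, where C1qa was highest in REG replicate 1. With all libraries their fold changes against LFG were below 0, at -0.11 ± 0.82 and -0.11 ± 0.77 in REG and -0.33 ± 0.76 and -0.21 ± 0.72 in hADMSCs-Exo, each smaller than its SE. The 3 chains summed to 645, 454 and 63.0 CPM in LFG, 608, 324 and 226 CPM in REG and 359, 326 and 378 CPM in hADMSCs-Exo. Macrophage markers stood at 1968, 1359 and 169 CPM in LFG, at 1051, 699 and 550 CPM in REG and at 815, 855 and 940 CPM in hADMSCs-Exo. The 7 Kupffer cell markers stood at 929, 717 and 110 CPM in LFG, 954, 422 and 265 CPM in REG and 654, 527 and 709 CPM in hADMSCs-Exo. The part of both lists in the C1q values was not tested. Cfp, properdin, which stabilises the alternative C3 convertase, was lowest in the same library, with 4.08 log2 CPM in LFG replicate 3 against 5.08 to 6.38 in the 8 others.

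The receptors of the anaphylatoxins, C3ar1 for C3a and C5ar1 for C5a, showed the widest spread of all tested members. C3ar1 was at 5.39, 4.33 and 0.00 log2 CPM in LFG, 3.30, 2.54 and 2.64 in REG and 2.71, 2.59 and 3.21 in hADMSCs-Exo, which is 992, 360 and 10 counts in the LFG libraries. LFG replicates 1 and 2 were above and LFG replicate 3 below every library of the other groups. Its log2 fold change against LFG was -1.53 ± 1.02 in REG and -1.58 ± 1.02 in hADMSCs-Exo with all libraries, both with overlapping groups. Without LFG replicate 3 it was -2.07 ± 0.35 in REG and -2.11 ± 0.34 in hADMSCs-Exo, past both thresholds of edgeR's quasi-likelihood test (Benjamini-Hochberg adjustment) (adjusted p 0.016 and 0.0249, from 9.72e-06 to 0.932 and from 8.42e-06 to 1.00 over all settings). C5ar1 moved alike, with -1.91 ± 0.98 in REG against LFG and -1.79 ± 1.04 in hADMSCs-Exo against LFG. Between hADMSCs-Exo and REG the differences were -0.01 ± 0.29 for C3ar1 and 0.15 ± 0.53 for C5ar1, and both changed sign between settings.

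**Figure D4:**
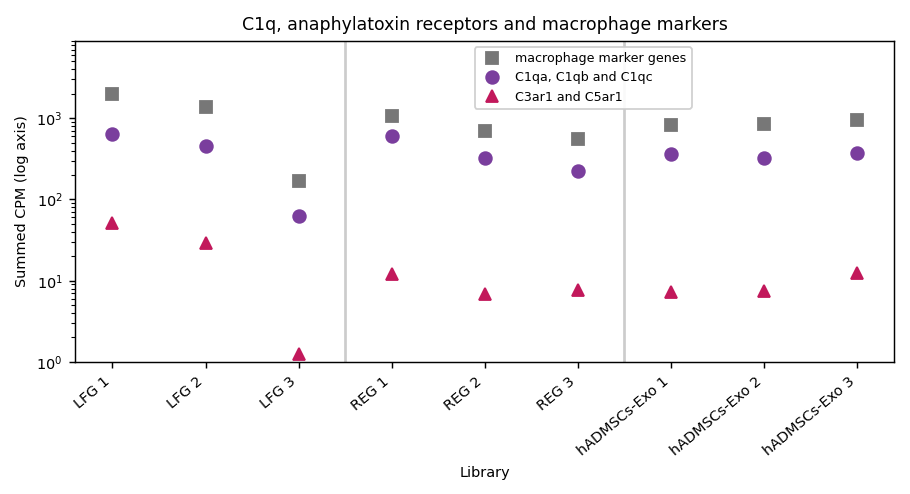
Summed CPM, on a log axis, of C1qa, C1qb and C1qc, of C3ar1 and C5ar1 and of the 14 macrophage markers in each of the 9 libraries. All 3 sums are lowest in LFG 3, at 63.0, 1.24 and 169 CPM, and the receptors are highest in LFG 1 and LFG 2, at 51.9 and 28.8 CPM.

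Among the proteases and C4 of the classical pathway, C4b, the fourth component that is cleaved by C1s, was the most abundant with a mean of 358 FPKM. It was at 10.17, 11.03 and 10.49 log2 CPM in LFG, 11.12, 11.06 and 11.11 in REG and 11.14, 11.14 and 11.41 in hADMSCs-Exo. All 6 libraries taken after CCl4 had ended lay above the 3 LFG libraries, by a log2 fold change of 0.49 ± 0.30 in REG and 0.61 ± 0.32 in hADMSCs-Exo, with unadjusted p of 0.152 and 0.103 by edgeR's quasi-likelihood test. hADMSCs-Exo and REG did not overlap either, but differed by 0.14 ± 0.15 only. C1ra and C1s1, the proteases of the C1 complex, had fold changes between -0.14 and 0.38 against LFG. C2 was highest in LFG replicate 3 at 4.64 log2 CPM, against 1.95 to 3.41 in the 8 others, and its fold changes against LFG went from -0.34 and -0.22 with all libraries to 0.94 and 1.03 without that library.

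Of the lectin pathway, Mbl2, a mannose-binding lectin, was at 7.92, 8.61 and 9.04 log2 CPM in LFG, 9.32, 9.04 and 8.55 in REG and 8.98, 8.70 and 8.73 in hADMSCs-Exo. Its groups overlapped in every comparison, with a log2 fold change of 0.41 ± 0.36 in REG and 0.19 ± 0.32 in hADMSCs-Exo against LFG. Mbl1, the other mannose-binding lectin, was at 6.11 log2 CPM in LFG replicate 1 and 8.15 in LFG replicate 3. It was past both thresholds in REG against LFG only without the latter, at 1.01 ± 0.23, against 0.10 with all libraries. The lectin-associated proteases Masp1 and Masp2 were 0.14 ± 0.27 and 0.37 ± 0.33 above LFG in REG.

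C3 itself was at 13.43, 14.02 and 12.61 log2 CPM in LFG, 14.00, 13.50 and 13.38 in REG and 14.16, 13.55 and 14.05 in hADMSCs-Exo. The lowest library was again LFG replicate 3, and the groups overlapped in all comparisons. Its log2 fold change against LFG was 0.20 ± 0.45 in REG and 0.45 ± 0.48 in hADMSCs-Exo, and the former turned to -0.07 both without LFG replicate 3 and with library totals alone. Between hADMSCs-Exo and REG it was 0.28 ± 0.25, above 0 in every setting run (0.16 to 0.51), with an unadjusted p of 0.29 by edgeR's quasi-likelihood test.

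The terminal components, Hc (the mouse C5), C6, C8a, C8b, C8g and C9, build the membrane attack complex. C9, the pore-forming component, was at 7.77, 8.54 and 9.65 log2 CPM in LFG, 8.13, 9.49 and 9.16 in REG and 8.01, 9.13 and 9.64 in hADMSCs-Exo. Each group spanned more than 1 unit. C8g, the small lipocalin-like chain of C8, was at 5.76, 7.16 and 9.01 in LFG, a span wider on both sides than its range in REG (7.75 to 8.87). Of the 6, 5 were above 0 in REG against LFG and 5 in hADMSCs-Exo against LFG, with medians of 0.38 and 0.39. Without LFG replicate 3 all 6 were above 0 in both, with medians of 0.95 and 1.13, and C8g at 1.77 ± 0.48 in REG and C6 at 1.35 ± 0.29 in hADMSCs-Exo passed both thresholds. With all libraries these were 0.45 for C8g in REG and 0.36 ± 0.58 for C6 in hADMSCs-Exo. In REG, C6 did not pass the thresholds without LFG replicate 3, at 0.87 ± 0.40, against -0.16 with all libraries. C6, which binds C5b, was also higher in every hADMSCs-Exo library (7.76, 7.93 and 8.15) than in every REG library (6.56, 7.74 and 7.73), by 0.52 ± 0.29. The gap to REG replicates 2 and 3 was small, and the difference was 0.23 without REG replicate 1.

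Serping1, the C1 inhibitor, which restrains both complement C1 and kallikrein, was the most abundant complement inhibitor with a mean of 446 FPKM. It was at 8.96, 9.55 and 9.99 log2 CPM in LFG, 10.22, 10.22 and 10.06 in REG and 9.97, 10.21 and 10.68 in hADMSCs-Exo. The REG libraries lay closely together above LFG, by 0.60 ± 0.32, while hADMSCs-Exo overlapped LFG at its lowest library and differed by 0.74 ± 0.35. With the block by replicate number the latter was 0.77 ± 0.23, although no label pairs these libraries. Cfi, the protease that inactivates C3b and C4b, was 0.46 ± 0.25 above LFG in REG and 0.38 ± 0.26 in hADMSCs-Exo, in both with no overlap of libraries. C4bp, its cofactor for C4b, was 0.37 ± 0.17 higher in hADMSCs-Exo than in REG, with an unadjusted p of 0.054 by edgeR's quasi-likelihood test and overlapping groups.

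In the contact system, which starts clotting on charged surfaces and releases bradykinin, Kng1 led with 11.03, 11.59 and 12.13 log2 CPM in LFG, 12.38, 12.15 and 12.11 in REG and 12.13, 11.71 and 12.38 in hADMSCs-Exo. LFG replicates 1 and 2 were below all 6 other libraries of REG and hADMSCs-Exo, and LFG replicate 3 was among them. Its log2 fold change against LFG was 0.56 ± 0.36 in REG and 0.42 ± 0.39 in hADMSCs-Exo. Klkb1 spanned 5.53 to 8.36 log2 CPM within LFG and lay between 7.07 and 7.45 in all libraries of the other groups. It was past both thresholds without LFG replicate 3, by 1.24 ± 0.28 in REG and 1.25 ± 0.28 in hADMSCs-Exo, but with all libraries the values were -0.04 ± 0.67 and 0.01 ± 0.66, and the counts of this gene are subject to the exon overlap given above.

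Tissue factor, encoded by F3, starts the extrinsic pathway on cells outside the vessel and was the member with the smallest p between hADMSCs-Exo and REG. It was scarce, with 26 to 157 counts per library and a mean of 1.4 FPKM. Its log2 CPM was 0.81, 0.64 and 1.97 in LFG (mean ± SD 1.14 ± 0.73, n = 3), 2.04, 2.54 and 3.08 in REG (2.55 ± 0.52) and 1.68, 1.65 and 0.96 in hADMSCs-Exo (1.43 ± 0.40). All REG libraries lay above all libraries of both other groups. The difference was -1.18 ± 0.34 in hADMSCs-Exo against REG, a 2.27-fold lower level, with an unadjusted p of 0.0081 and an adjusted p of 0.407 by edgeR's quasi-likelihood test (Benjamini-Hochberg adjustment). Over all settings the adjusted p ranged from 0.119 to 1.00, and the fold change from -1.39 to -0.87. REG was 2.64-fold above LFG, with a log2 fold change of 1.40 ± 0.50 and an unadjusted p of 0.0279 by edgeR's quasi-likelihood test, and 1.99 ± 0.40 without LFG replicate 3, where it passed both thresholds. Against LFG, hADMSCs-Exo differed by 0.20 ± 0.51.

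Factor VII, the plasma protease that binds tissue factor, is made by hepatocytes. F7 was at 5.63, 6.44 and 7.02 log2 CPM in LFG (6.36 ± 0.70), 7.29, 7.31 and 7.33 in REG (7.31 ± 0.02) and 7.04, 7.37 and 7.62 in hADMSCs-Exo (7.34 ± 0.29). Every REG and hADMSCs-Exo library was above every LFG library, although LFG replicate 3 came close to the lowest of them. The log2 fold change against LFG was 0.84 ± 0.35 in REG and 0.88 ± 0.36 in hADMSCs-Exo, with unadjusted p of 0.0491 and 0.0476 by edgeR's quasi-likelihood test. It was 1.25 ± 0.25 and 1.28 ± 0.30 without LFG replicate 3, past both thresholds in both comparisons. hADMSCs-Exo and REG differed by 0.05 ± 0.16.

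Of the factors that form the tenase and prothrombinase complexes, prothrombin (F2) was the most abundant. It was at 9.88, 10.66 and 11.11 log2 CPM in LFG, 11.07, 11.19 and 11.20 in REG and 10.80, 10.97 and 11.21 in hADMSCs-Exo. Its groups overlapped because LFG replicate 3 reached the level of the other groups, and the log2 fold change against LFG was 0.51 ± 0.36 in REG and 0.35 ± 0.37 in hADMSCs-Exo. F9, the factor missing in haemophilia B, was above LFG without overlap in REG (0.44 ± 0.21) and in hADMSCs-Exo (0.42 ± 0.21). F10 was 0.50 ± 0.35 above LFG in REG, and F5, the cofactor of factor X, was -0.20 ± 0.23 from LFG there. F8, the cofactor of factor IX, had a mean of 0.884 FPKM and was lowest in LFG replicate 3 at 1.22 log2 CPM and highest in REG replicate 1 at 4.37. Markers of sinusoidal endothelium, a known source of factor VIII, summed to 55.4 CPM in LFG replicate 3 and to 261 CPM in REG replicate 1, the highest of the 9 libraries, with hADMSCs-Exo replicate 3 lowest at 53.6 CPM (LFG replicate 3 with library totals alone), and their part in the F8 values was not tested.

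Fibrinogen, the soluble precursor of fibrin and an acute-phase protein, is a dimer of Aα, Bβ and γ chains, encoded by Fga, Fgb and Fgg. Fga was at 11.52, 11.90 and 11.83 log2 CPM in LFG (11.75 ± 0.20), 13.21, 12.93 and 13.0004 in REG (13.05 ± 0.15) and 12.47, 12.40 and 13.23 in hADMSCs-Exo (12.70 ± 0.46). The LFG libraries were close together and below all others, and hADMSCs-Exo was divided, with replicate 3 at the level of REG and replicates 1 and 2 between LFG and REG. REG was 2.45-fold above LFG, a log2 fold change of 1.29 ± 0.30 with an unadjusted p of 0.00382 and an adjusted p of 0.309 by edgeR's quasi-likelihood test (Benjamini-Hochberg adjustment). DESeq2 gave an adjusted p of 3.21e-06, and over all settings it ranged from 1.60e-08 to 0.928. hADMSCs-Exo was 0.97 ± 0.37 above LFG, with an unadjusted p of 0.0338 by edgeR's quasi-likelihood test.

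Fgb was at 11.48, 11.84 and 12.18 log2 CPM in LFG (11.83 ± 0.35), 13.26, 12.92 and 12.88 in REG (13.02 ± 0.21) and 12.54, 12.29 and 13.16 in hADMSCs-Exo (12.66 ± 0.45). As with Fga, LFG was below all other libraries. REG was 1.17 ± 0.34 above LFG, with an unadjusted p of 0.0106 by edgeR's quasi-likelihood test and an adjusted p of 0.00458 by DESeq2, where all settings gave 6.92e-08 to 0.928, and hADMSCs-Exo was 0.83 ± 0.38 above LFG. Fgg was at 10.62, 11.09 and 11.66 log2 CPM in LFG (11.12 ± 0.52), 12.18, 12.20 and 12.06 in REG (12.15 ± 0.08) and 11.68, 11.39 and 12.26 in hADMSCs-Exo (11.78 ± 0.44). REG was 0.96 ± 0.35 above LFG with no overlap, with an unadjusted p of 0.0296 by edgeR's quasi-likelihood test, whereas hADMSCs-Exo overlapped LFG and differed by 0.62 ± 0.40. Together the 3 chains took 1.01%, 1.06% and 0.939% of all counts in LFG, 2.33%, 1.86% and 1.89% in REG and 1.52%, 1.32% and 2.21% in hADMSCs-Exo, so that LFG was below every other library without any scaling beyond the library total. The summed level of the 11 hepatocyte markers also differed between the groups, at 85888, 138495 and 147166 CPM in LFG, 171747, 167840 and 166057 CPM in REG and 137917, 137939 and 119558 CPM in hADMSCs-Exo. Every REG library was above every LFG library in this sum, as for the 3 fibrinogen chains, F7, Plg and Serpinf2. LFG replicate 1 was lowest with TMM scaling, as for 33 members. Scaled by library totals alone the sums were 118357, 151848 and 119911 CPM in LFG, 154243 to 167326 CPM in REG and 140976, 139021 and 111298 CPM in hADMSCs-Exo, with REG still above LFG but hADMSCs-Exo replicate 3 lowest. Most of each sum was Alb. Of all counts it took 8.84%, 11.8% and 8.22% in LFG, 13.6%, 12.2% and 12.6% in REG and 10.5%, 10.8% and 8.41% in hADMSCs-Exo. In REG against LFG the median log2 fold change of the 11 markers was 0.15. At an unadjusted p under 0.05 by edgeR's quasi-likelihood test 1 was higher and 1 lower (11.3% of all genes). Without LFG replicate 3 the median was 0.62, with 5 higher and 1 lower (37.3%). The part of these markers in the results of the members was not tested.

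Between hADMSCs-Exo and REG the fold changes of Fga, Fgb and Fgg were -0.30 ± 0.26, -0.32 ± 0.26 and -0.32 ± 0.24, with overlapping groups. Without hADMSCs-Exo replicate 3 these became -0.62 ± 0.18, -0.62 ± 0.21 and -0.61 ± 0.18, with unadjusted p of 0.0119, 0.0211 and 0.0105 and adjusted p of 0.505 each by edgeR's quasi-likelihood test (Benjamini-Hochberg adjustment), and over all settings the adjusted p lay between 0.505 and 1.00. F13b, the carrier chain of the factor that crosslinks fibrin, had 6.63 to 7.52 log2 CPM in LFG and 7.29 to 7.81 in the other groups.

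**Figure D5:**
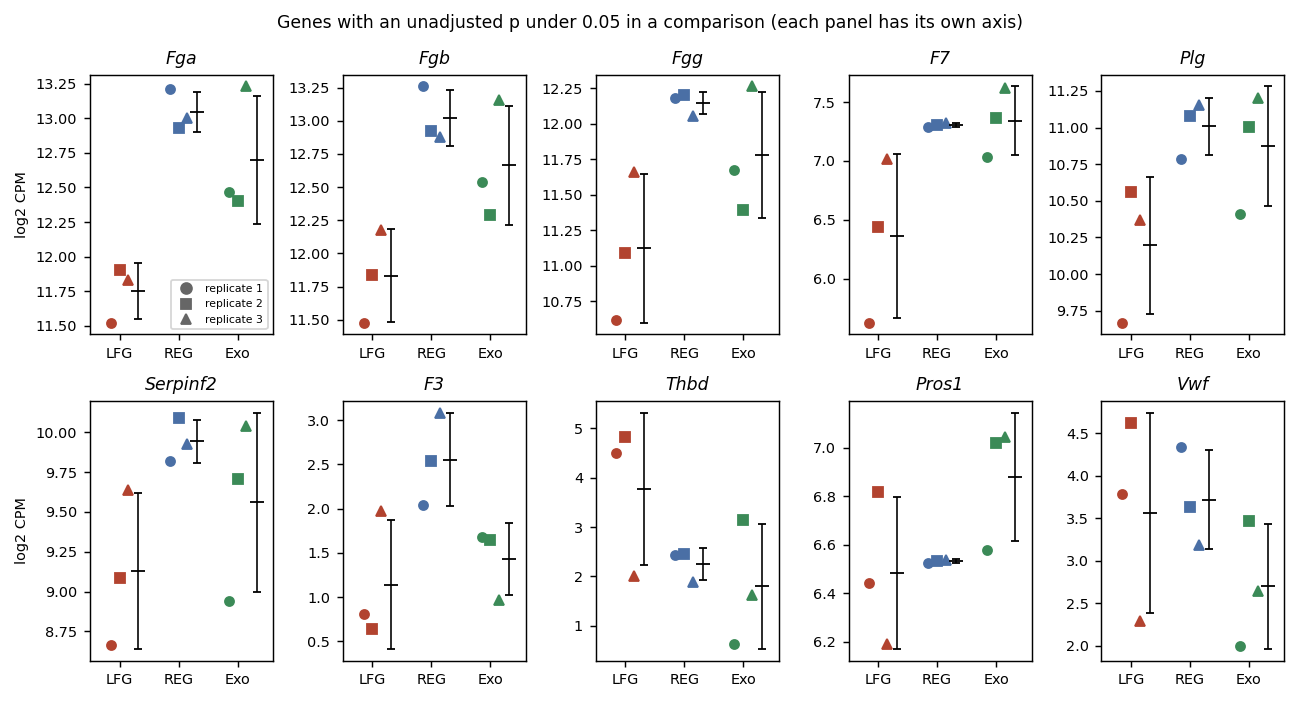
Log2 CPM of the 10 genes with an unadjusted p under 0.05 in any comparison, with each library as a point (replicate 1 circle, 2 square, 3 triangle) and the mean ± SD of each group beside it, each panel on its own axis. The fibrinogen genes and F7 have all REG points above all LFG points, F3 has REG above both other groups, and LFG replicate 3 is apart from LFG replicates 1 and 2 for Thbd, F3 and Vwf.

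Among the anticoagulants, Thbd encodes thrombomodulin, the endothelial receptor that turns thrombin into an activator of protein C. It was at 4.50, 4.82 and 2.01 log2 CPM in LFG (3.78 ± 1.54), 2.44, 2.45 and 1.88 in REG (2.26 ± 0.32) and 0.63, 3.15 and 1.63 in hADMSCs-Exo (1.80 ± 1.27). LFG replicates 1 and 2 were above all other libraries, with 536 and 508 counts, and LFG replicate 3, with 44, was among them. The log2 fold change against LFG was -1.94 ± 0.66 in REG and -2.08 ± 0.87 in hADMSCs-Exo, with unadjusted p of 0.0214 and 0.0495 by edgeR's quasi-likelihood test. Without LFG replicate 3 it fell by 2.38 ± 0.24 and by 2.53 ± 0.60, past both thresholds with adjusted p of 0.0104 and 0.0498 (8.77e-13 to 0.928 and 0.00141 to 1.00 over all settings). The 6 vascular endothelial markers, a list that includes Vwf, summed to 133, 133 and 28.0 CPM in LFG, 146, 102 and 70.2 CPM in REG and 47.3, 119 and 64.8 CPM in hADMSCs-Exo. These sums were lowest in LFG replicate 3, the lowest LFG library for Thbd, and in hADMSCs-Exo replicate 1, the lowest of all for Thbd, and their part in the result was not tested.

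Pros1, protein S, the cofactor of activated protein C, was at 6.44, 6.82 and 6.19 log2 CPM in LFG, 6.52, 6.54 and 6.54 in REG and 6.58, 7.02 and 7.05 in hADMSCs-Exo. Each hADMSCs-Exo library was above each REG library, the lowest by little. The log2 fold change was 0.36 ± 0.15, a 1.29-fold higher level, with an unadjusted p of 0.0438 and an adjusted p of 0.488 by edgeR's quasi-likelihood test (Benjamini-Hochberg adjustment) (0.294 to 1.00 over all settings). Serpind1, heparin cofactor II, was the most abundant anticoagulant by FPKM and was at 8.88, 9.21 and 9.14 log2 CPM in LFG, 9.41, 9.65 and 9.46 in REG and 9.39, 9.33 and 9.39 in hADMSCs-Exo. Its 3 groups did not overlap and were in the order LFG, hADMSCs-Exo, REG, with differences of 0.42 ± 0.22 for REG and 0.27 ± 0.22 for hADMSCs-Exo against LFG and -0.14 ± 0.13 for hADMSCs-Exo against REG, none with an unadjusted p under 0.05. Serpinc1, antithrombin, and Proc, protein C, were highest in LFG replicate 3 at 11.44 and 10.17 log2 CPM and lowest in LFG replicate 1 at 9.80 and 7.92.

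In fibrinolysis, Plg encodes plasminogen, the precursor of plasmin. It was at 9.67, 10.56 and 10.37 log2 CPM in LFG (10.20 ± 0.47), 10.79, 11.08 and 11.16 in REG (11.01 ± 0.19) and 10.41, 11.002 and 11.20 in hADMSCs-Exo (10.87 ± 0.41). REG lay above LFG without overlap, by 0.77 ± 0.32 with an unadjusted p of 0.0459 by edgeR's quasi-likelihood test, and hADMSCs-Exo overlapped LFG and was 0.64 ± 0.36 above it. Serpinf2, the antiplasmin that inactivates plasmin, was at 8.66, 9.08 and 9.64 log2 CPM in LFG (9.13 ± 0.49), 9.82, 10.09 and 9.93 in REG (9.94 ± 0.14) and 8.94, 9.70 and 10.04 in hADMSCs-Exo (9.56 ± 0.56). REG was above LFG without overlap, by 0.76 ± 0.31 with an unadjusted p of 0.0447 by edgeR's quasi-likelihood test, and by 1.09 ± 0.24 without LFG replicate 3, past both thresholds. Cpb2, which protects fibrin from plasmin, was 0.55 ± 0.29 above LFG in REG without overlap, and was at 8.26, 8.59 and 9.49 log2 CPM in hADMSCs-Exo, where its highest library was again replicate 3. All 3 genes were above 0 against LFG in REG and in hADMSCs-Exo, with TMM scaling and with library totals alone.

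Vwf, von Willebrand factor, which tethers platelets and carries factor VIII, had a mean of 0.758 FPKM. It was at 3.78, 4.62 and 2.29 log2 CPM in LFG (3.56 ± 1.18), 4.34, 3.63 and 3.18 in REG (3.72 ± 0.58) and 1.99, 3.46 and 2.64 in hADMSCs-Exo (2.70 ± 0.74). hADMSCs-Exo overlapped both other groups. It was 1.98-fold lower than in REG, with a log2 fold change of -0.99 ± 0.42, an unadjusted p of 0.0462 and an adjusted p of 0.491 by edgeR's quasi-likelihood test (Benjamini-Hochberg adjustment) (0.325 to 1.00 over all settings). The fold change was -1.47 without hADMSCs-Exo replicate 2, -0.70 without hADMSCs-Exo replicate 1 and -0.59 without REG replicate 1, and the unadjusted p was above 0.05 unless the library left out was REG replicate 3 or hADMSCs-Exo replicate 2. The sinusoidal endothelial markers summed to 261, 128 and 90.3 CPM in REG and 56.1, 195 and 53.6 CPM in hADMSCs-Exo, highest and lowest in the same libraries as Vwf within REG, and highest in the same library within hADMSCs-Exo, and their part in the result was not tested. The difference was -0.05 ± 0.58 in REG against LFG and -1.06 ± 0.63 in hADMSCs-Exo against LFG.

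By role, 4 of 4 genes of the fibrinogen and factor XIII group, 3 of 3 fibrinolysis genes and both of tissue factor and factor VII had log2 fold changes above 0 in REG against LFG and in hADMSCs-Exo against LFG, with all libraries, without LFG replicate 3 and under each scaling run. The medians of the fibrinogen and factor XIII group were 1.06 in REG and 0.73 in hADMSCs-Exo, and -0.31 between hADMSCs-Exo and REG, where all 4 were below 0. Both anaphylatoxin receptors were below 0 against LFG under the same settings. The C1q chains, C3 and Cfp changed sign with the library or the scaling. The lectin pathway and the contact system had 4 of 4 and 3 of 4 members above 0 in REG against LFG, and 3 of 4 and 4 of 4 with library totals alone. These groups share libraries and LFG, so their fold changes are not independent.

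Other genes of the 2 cascades were read from lists that hold no member. Of 27 further complement genes 25 were in the table, C4a and Cfhr4 being absent, and 22 or 23 were tested per comparison. An unadjusted p under 0.05 was reached by 1 higher and 3 lower in hADMSCs-Exo against REG (10.0% of all genes), by 1 higher in hADMSCs-Exo against LFG (5.98%), and by 1 higher and 2 lower in REG against LFG (11.3%). Of 29 further genes of coagulation and fibrinolysis 22 were tested, and the counts were 3 lower, 1 higher with 2 lower, and 2 higher with 1 lower. With all 6 libraries none of either list had an adjusted p under 0.05 by edgeR's quasi-likelihood test. With LFG replicate 3 left out, 23 genes of each list were tested. In REG against LFG, 2 further complement genes were then higher and 5 lower past both thresholds, and 2 of the coagulation and fibrinolysis genes were higher and 4 lower, beside 3.81% of all genes higher and 6.94% lower. In hADMSCs-Exo against LFG the counts were 1 lower, and 1 higher with 2 lower, beside 1.47% of all genes higher and 4.5% lower. For REG an unadjusted p under 0.05 was then reached by 13 of these complement genes, 6 of them higher, and by 13 of the others, 8 of them higher (37.3% of all genes). For hADMSCs-Exo it was reached by 11 and 10, of which 6 each were higher (28.5%).

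Of the genes of these lists with an unadjusted p under 0.05 and a change of 1 or more log2 units, those reported here are described next. Itgam, the α chain of complement receptor 3 and also one of the 14 macrophage markers, was at 2.02, 1.71 and -0.28 log2 CPM in LFG, 0.06, 0.22 and -0.62 in REG and 0.25, 1.47 and 1.60 in hADMSCs-Exo, higher by 1.40 ± 0.48 in hADMSCs-Exo than in REG without overlap and -1.65 ± 0.67 in REG against LFG. Colec10, a collectin of the lectin pathway, was at 3.04, 2.73 and 2.27 in LFG and 4.15, 3.77 and 3.34 in REG, a difference of 1.09 ± 0.32 without overlap. C7, a terminal component, was at 1.76, 1.44 and 0.86 in REG and -0.38, 0.94 and 0.33 in hADMSCs-Exo, a difference of -1.07 ± 0.45 with overlap. Cr2, a B-cell receptor for C3 fragments, was at 5.03, 3.65 and -0.84 in LFG and 1.47, 0.35 and -0.31 in REG, a difference of -3.33 ± 1.25. LFG replicate 3 lay below the REG libraries and LFG replicates 1 and 2 above them. Leaving out that library gave -3.89 ± 0.57 for Cr2 and -2.05 ± 0.42 for Itgam in REG against LFG, with adjusted p of 0.0151 and 0.0233 by edgeR's quasi-likelihood test.
Plat, the tissue-type plasminogen activator, which turns plasminogen into plasmin, was at 2.97, 2.81 and -2.29 log2 CPM in LFG, 0.67, 1.49 and 0.48 in REG and -2.09, -0.15 and -2.48 in hADMSCs-Exo. On this scale 0 counts stand at -3.11. For Cfd, 3 counts stood at -1.77 in hADMSCs-Exo replicate 1 and -1.71 in replicate 3, above Plat in both libraries. The fold changes of Plat with hADMSCs-Exo therefore rest on very few counts. It was lower in hADMSCs-Exo than in REG without overlap, by -2.46 ± 0.76 with an unadjusted p of 0.0113 and an adjusted p of 0.407 by edgeR's quasi-likelihood test (Benjamini-Hochberg adjustment). Against LFG it was -3.93 ± 1.44 in hADMSCs-Exo and -1.43 ± 1.08 in REG, and leaving out LFG replicate 3 gave -4.46 ± 0.71 and -1.96 ± 0.37, with adjusted p of 0.0240 and 0.0196 by edgeR's quasi-likelihood test. The stellate cell and myofibroblast markers, at 83.8, 228 and 131 CPM in hADMSCs-Exo and 377, 381 and 216 CPM in REG, were on average lower in hADMSCs-Exo, with an overlap of the groups. Of the 9 markers 7 were lower and 0 higher at an unadjusted p under 0.05 by edgeR's quasi-likelihood test, beside 4.69% of all genes lower. Their median log2 fold change was -1.19. Their part in the values of Plat was not tested.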

How the data were processed

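Per the labels and the submitters' processing notes, RNA of whole liver was extracted with Trizol and sequenced on an Illumina instrument, and cutadapt 1.15, HISAT2 2.0.5, HTSeq 0.9.1, DESeq 1.30.0 and the build GRCm38 are named. The authors deposited raw counts per gene, gene lengths and FPKM. Recomputing FPKM from the counts and lengths left a relative difference of 9.19e-07 or less. Columns headed MSC_E were read as hADMSCs-Exo, and 3 of 12 samples had no columns and were not analysed here. The authors' own comparisons were not used. The values of 1 further gene of the lists are not reported here.

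Counts of all genes were tested with edgeR 4.0.16 (R 4.3.3), TMM scaling, edgeR's filter on low counts and the quasi-likelihood test, two-sided, with the 6 libraries of 2 groups per fit and Benjamini-Hochberg adjustment over all genes tested. Log2 CPM used a prior count of 2, so the difference of 2 means of log2 CPM can depart from the fitted fold change where a library is far off. The fits were also run on simulated data with the same dispersion for every gene and no outlying library. The outcome is not reported here and does not bear on LFG replicate 3. Alternatives were RLE size factors, library totals alone, DESeq2 1.42.0, no filter, a minimum of 10 counts per library, a fit of all 9 libraries, a block by replicate number, no limit on fold change, and each library left out. DESeq2 and library totals, each without LFG replicate 3, and the exon overlaps (GENCODE M21) were chosen after seeing the data. The members and gene lists were chosen with earlier results of these data known. Values in every library are given for members with an unadjusted p under 0.05 in a comparison and for the most abundant member of each of 14 roles, 20 in all, and others named were chosen after their values were seen. Total counts of 13837445 to 19840917 make counting error small beside the spread between libraries for all but scarce genes. Libraries of a group differed by more than sampling noise. Deviations of same-numbered libraries correlated by 0.101, 0.308 and 0.179 for hADMSCs-Exo and LFG and by 0.157, 0.00639 and 0.0374 for hADMSCs-Exo and REG. For REG and LFG they correlated by 0.414, -0.200 and 0.306. No label pairs these libraries, and the correlations do not establish pairs. Tables were handled with pandas 2.3.3, intervals computed with scipy 1.17.1 and plots drawn with matplotlib 3.10.9 in Python 3.11.15.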

Additional observations from a re-analysis of the deposited data

How the results depend on the processing

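LFG replicate 3 moved the results more than any other library, and the cause was not tested. Leaving out 1 library at a time, the members past both thresholds numbered 0 to 0 in hADMSCs-Exo against REG, 0 to 6 in hADMSCs-Exo against LFG and 0 to 13 in REG against LFG. Those with an unadjusted p under 0.05 numbered 1 to 5 (4.92% to 10.7% of all genes over the same fits), 0 to 21 (2.91% to 28.5%) and 2 to 28 (4.51% to 37.3%), and the members' medians ran from -0.16 to 0.03, 0.17 to 0.62 and 0.18 to 0.73. RLE size factors, no filter, a minimum of 10 counts and no limit on fold change kept every count within 1.5 times the one reported. By DESeq2 the unadjusted p was under 0.05 for 7 members in hADMSCs-Exo against LFG (7.2% of all genes) and 13 in REG against LFG (11.1%), where 2 passed both thresholds (1.42%). In a fit of all 9 libraries it was under 0.05 for 1 in hADMSCs-Exo against REG (3.79%) and 7 in hADMSCs-Exo against LFG (9.74%), and with library totals alone for 5 in the latter (5.39%). DESeq2 without LFG replicate 3 gave, in hADMSCs-Exo against LFG, 12 members past both thresholds (8.11% of all genes), 31 with an unadjusted p under 0.05 (23.9%) and 0.62 as their median, and in REG against LFG 15 (10.9%), 34 (30.1%) and 0.75. Library totals alone without that library gave 7 (10.8%) and 17 members (30.8%) with a median of 0.31, and 5 (18.8%) and 25 (42.0%) with a median of 0.35.

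With the replicate block the unadjusted p was under 0.05 for 5 members in hADMSCs-Exo against LFG (5.72% of all genes) and for 5 in REG against LFG (8.61%), and no member passed both thresholds. In neither comparison do the labels pair the libraries. The block turned C1qa to 0.0049, C9 to -0.00061 and C3ar1 to 0.0072 in hADMSCs-Exo against REG, and Vwf to 0.15 in REG against LFG.

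Of the 49 tested members, 25 had log2 fold changes on both sides of 0 over the settings in hADMSCs-Exo against REG, 22 in hADMSCs-Exo against LFG and 16 in REG against LFG. Of these, only those among the 20 members given with values in every library follow, by their range when 1 library at a time was left out. In hADMSCs-Exo against REG these were C1qa (-0.41 to 0.43), Mbl2 (-0.38 to 0.0063), C9 (-0.35 to 0.38), Serping1 (-0.071 to 0.30), C3ar1 (-0.23 to 0.29, and 0.038 with library totals alone), Kng1 (-0.29 to 0.035), F7 (-0.10 to 0.19), Thbd (-1.11 to 0.31) and Plg (-0.28 to 0.088). In hADMSCs-Exo against LFG they were C1qa (-0.40 to 0.54), Mbl2 (-0.052 to 0.50), C9 (-0.19 to 0.87) and F3 (-0.041 to 0.78). There C1qa was -0.24 with library totals alone, -0.39 by DESeq2 without LFG replicate 3 and -0.75 with library totals without it, where C3 was -0.11 and Pros1 -0.056. In REG against LFG they were C1qa (-0.30 to 0.70), C3 (-0.068 to 0.58), C9 (-0.18 to 0.86), Pros1 (-0.077 to 0.21) and Vwf (-0.43 to 0.58). Library totals alone gave -0.16 for C1qa, -0.071 for C3 and -0.21 for Pros1. DESeq2 without LFG replicate 3 gave -0.24, -0.063 and -0.072, and library totals without it gave -0.67, -0.45 and -0.48.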
